A study of Homo sapiens with 33 samples.

Results

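The genes described here are the translation initiation factors and their regulators, taken as every table entry whose name is EIF followed by a digit and names a single gene. They numbered 53 of 13310 entries for UM-UC-3 cells without GABPB1, 53 of 14332 for A-375 cells without GABPB1, and 52 of 14160 for A-375 cells without the long form of GABPB1. The entry absent from the last of these was EIF4E3, which was not analysed there. Of the 57 genes in 9 lists by role, 52 had an entry, and EIF1AY, EIF2S3B, EIF2S3L, EIF4E1B and EIF4EBP3 were not analysed here. The remaining entry was EIF3J-AS1, an antisense RNA at the EIF3J locus. Names that join an initiation factor to a neighbouring gene, such as SENP3-EIF4A1, were not members.

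Initiation is the step at which a ribosome is placed on the start codon of a messenger RNA. The factor eIF2 brings the initiator tRNA as a complex with GTP, eIF1, eIF1A and eIF5 help the small subunit choose the start codon, and eIF3 is the large scaffold on that subunit. The complex eIF4F holds the cap-binding protein eIF4E, the scaffold eIF4G and the helicase eIF4A, and loads the ribosome at the cap. The pathway has a pair of well-known brakes. Stress kinases phosphorylate eIF2, which then blocks its own exchange factor eIF2B, and the eIF4E binding proteins hold eIF4E away from eIF4G unless the kinase complex mTORC1 phosphorylates them. GABP is an ETS family transcription factor whose alpha subunit binds DNA at sites with the core GGAA, and GABPB1 is one of its beta subunits.

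RNA was sequenced from 33 libraries of UM-UC-3, a human bladder cancer line, and A-375, a human melanoma line. The UM-UC-3 total knockout joined 4 B1KO libraries, edited across exons 2 to 9 of GABPB1, and 5 B1X2KO libraries, edited at exon 2, from 8 clones in all. The A-375 total knockout joined 4 B1KO and 8 B1X2KO libraries from 9 clones, and the A-375 long-form knockout, B1LKO, edited at exon 9, had 2 libraries from 2 clones. Controls were clones edited at the ROSA26 locus (3 libraries in UM-UC-3 and 4 in A-375) and parental cells (1 library in UM-UC-3 and 2 in A-375). Knockouts and ROSA26 controls were clones grown from sorted GFP-positive cells that had received Cas9 and guide RNAs on the PX458 plasmid, so part of the spread is between clones, and parental cells were not edited. The deposited tables are titled as knockout over parental, and whether the ROSA26 libraries were counted among those controls is not stated.

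What the authors deposited is one fitted result per entry and comparison: the mean normalized count over the libraries of the fit, the log2 fold change of knockout over control with its standard error (SE), and a p-value from DESeq2. Values of single libraries are therefore not shown, and an entry was called where the authors' Benjamini-Hochberg adjusted p was under 0.05. The summed mean counts of the tables were 4.24e+07 for UM-UC-3, 1.95e+07 for the A-375 total knockout and 5.35e+07 for the A-375 long-form knockout, so mean counts are not compared between tables. In the authors' deposited tables the long form of GABPB1 had a log2 fold change of -12.60 in UM-UC-3, -10.60 in A-375 and -12.79 in the A-375 long-form knockout. The short form was at -9.86, -9.81 and 13.95 in the same order. The value of 13.95 needs almost no short-form counts in its controls, whereas -9.81 in A-375 needs a clear short-form level in its controls. The short-form means were low, 41.2 in UM-UC-3 and 75.5 in the A-375 total knockout, and these values are not read as sizes of change. The other beta subunit gene, GABPB2, was higher in both total knockouts (2.49 in UM-UC-3 and 1.81 in A-375). SOX10, a melanocyte lineage factor, had a mean of 14704 normalized counts in the A-375 total knockout table, where 5 of 8 melanoma markers were measured but PMEL was at 20.1 and TYR, MLANA and DCT were not analysed. In UM-UC-3, 6 of 12 urothelial markers were measured. Among them were the general epithelial keratin KRT18 at 8029, PPARG at 990.2 and GATA3 at 194.5 normalized counts. UPK1B, UPK2, UPK3A, KRT5, KRT19 and TP63 were not analysed there. KRT18, PPARG and GATA3 were also measured in the A-375 total knockout, at 4835, 933.8 and 100.9, so they do not mark UM-UC-3 alone. In the UM-UC-3 total knockout 4 of these urothelial markers were higher and 1 was lower, and 2 of 6 measured melanoma markers, DCT and MITF, were higher, whereas no marker of either list was called in A-375. The part of such shifts in the results was not tested.

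In UM-UC-3 total knockout cells 22 of the 53 entries were called, 7 of them higher and 15 lower. This was 41.5% of the members, against 31.1% of all entries in that table. By direction, 13.2% were higher, against 17% of all entries, and 28.3% were lower, against 14.2% of all entries. The members drew many reads, with a median mean count of 6171 in this table against 1369.9 over all entries, and their SE was smaller, with a median of 0.132 against 0.179 over all entries. Among the 5151 entries between the members' quartiles of mean count, 16.1% were higher and 17.8% lower. The median log2 fold change was -0.07 over the members and 0.03 over all entries.

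In A-375 total knockout cells 4 of the 53 entries were called, 2 higher and 2 lower. This was 7.55% of the members, against 10.8% of all entries, with 5.07% of all entries higher and 5.74% lower. The median log2 fold change was 0.01 over the members and -0.05 over all entries. The members' SE had a median of 0.132 in UM-UC-3 and 0.173 in A-375, so a change of a given size was less precisely measured in A-375. In the A-375 long-form knockout no member was called by the authors' DESeq2 test, against 0.904% of all entries (0.24% higher and 0.664% lower). There 4 of the 52 members had an unadjusted p under 0.05, against 1545 of 14156 entries (10.9%). Of the 52 members 0 had a q-value under 0.05, against 136 of 14156 entries (0.961%).

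**Figure D1:**
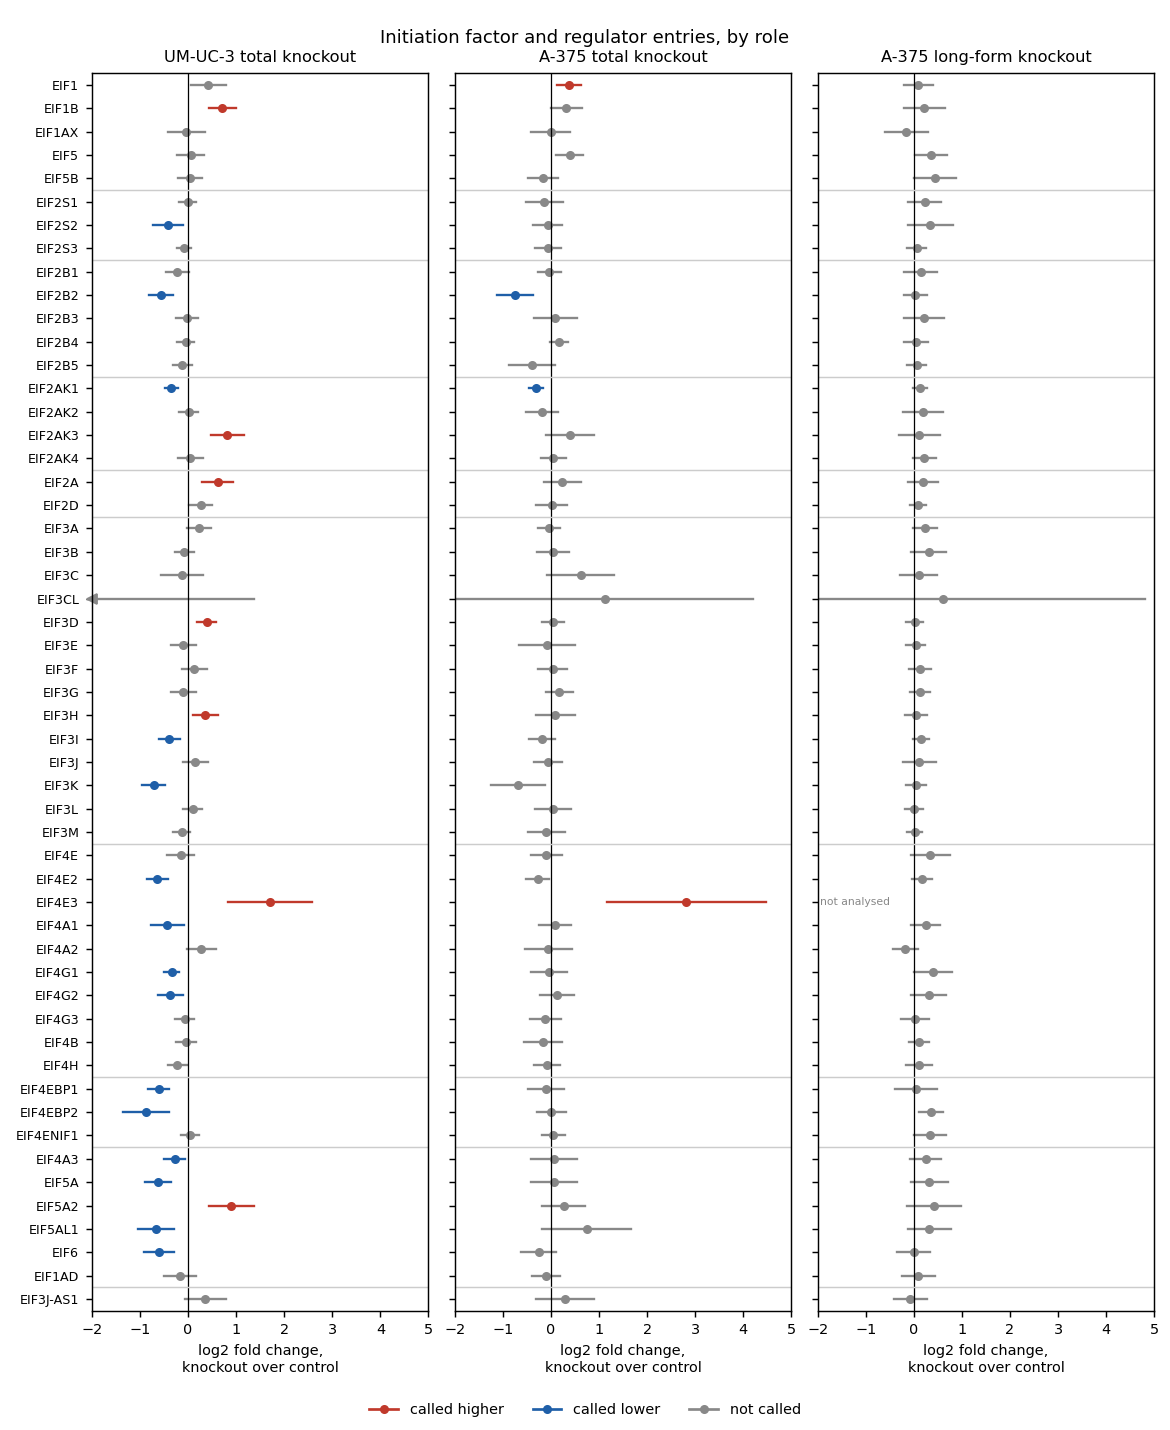
Log2 fold change of knockout over control for each initiation factor entry, grouped by role, in the UM-UC-3 total, A-375 total and A-375 long-form knockouts. Points are the authors' deposited values and bars are 95% intervals from the deposited SE; red and blue points are called higher and lower, and the EIF3CL value in UM-UC-3, -2.65, lies off the axis at the arrow. The 22 coloured points in UM-UC-3 compare with 4 in the A-375 total and 0 in the A-375 long-form knockout.

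Of the 53 members 2 (3.77%) were lower in both cell lines and 1 (1.89%) was higher in both. EIF2B2 and EIF2AK1 were lower in both total knockouts, which was 13.3% of the 15 members lower in UM-UC-3 and 100% of the 2 lower in A-375. EIF4E3 was higher in both, which was 14.3% of the 7 members higher in UM-UC-3 and 50% of the 2 higher in A-375. Over all entries measured in both tables, 2.07% were lower in both and 1.2% were higher in both. For all entries, those lower in both made up 14.2% of the UM-UC-3 calls and 35.8% of the A-375 calls, and those higher in both made up 7.15% and 26.3%. No member was called in opposite directions, against 0.546% of all entries, and 30 members (56.6%) were called in neither line, against 62% of all entries.

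**Figure D2:**
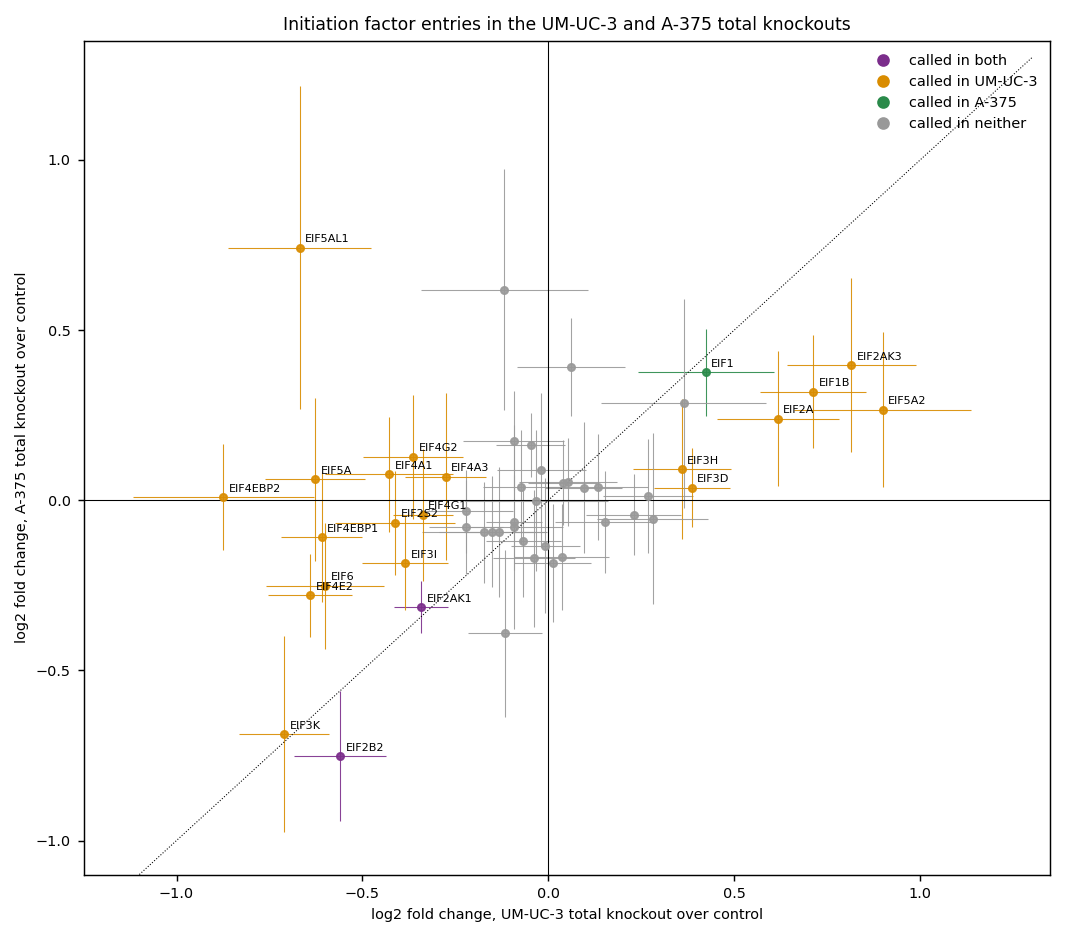
Log2 fold change of each member in the UM-UC-3 total knockout (horizontal) and in the A-375 total knockout (vertical), with bars of 1 SE from the authors' deposited tables and a dotted line of equal change. EIF4E3 (1.70 in UM-UC-3 and 2.81 in A-375) and EIF3CL are left out because they lie off this scale. Only EIF2B2 and EIF2AK1 among the plotted members are called in both lines.

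The eIF2 branch held the members lower in both lines. EIF2AK1 encodes HRI, the eIF2 kinase known for sensing heme shortage and for relaying mitochondrial stress. In the authors' deposited table for UM-UC-3 its log2 fold change was -0.34 ± 0.07 (SE; adjusted p = 3.09e-05), so that it fell by 21.1%. In the authors' deposited table for A-375 the total knockout gave -0.31 ± 0.08 (SE; adjusted p = 0.00165). If parental libraries alone were the controls, the mean and fold change of the authors' tables place EIF2AK1 at 4299.8 normalized counts in UM-UC-3 knockout cells and 5453 in UM-UC-3 controls. The same working gives 2817 in A-375 knockout cells and 3504 in A-375 controls. With all controls counted, these levels become 4079 and 5172 in UM-UC-3, and 2696 and 3353 in A-375, knockout before control in each. In the long-form knockout EIF2AK1 had 0.13 ± 0.07 (SE; adjusted p = 0.511). The gene lies on the minus strand of chromosome 7 (hg38, chr7:6022244-6059230) and overlaps AIMP2 and ANKRD61 on the other strand. The sources used here do not say whether the counting used the strand, and AIMP2 itself was not called, at -0.14 ± 0.14 in UM-UC-3 and 0.08 ± 0.22 in A-375.

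The other eIF2 kinases were not called lower in any table. EIF2AK3 encodes PERK, the kinase that senses unfolded protein in the endoplasmic reticulum, and it rose in the UM-UC-3 total knockout, by 0.81 ± 0.17 on the log2 scale in the authors' deposited table (SE; adjusted p = 4.37e-05). Its value in the A-375 total knockout was 0.40 ± 0.26 (SE; adjusted p = 0.327). EIF2AK2 encodes PKR, the sensor of double-stranded RNA, and EIF2AK4 encodes GCN2, the sensor of uncharged tRNA. EIF2AK2 was at 0.01 ± 0.10 in UM-UC-3 and -0.19 ± 0.17 in A-375, and EIF2AK4 was at 0.05 ± 0.13 in both lines. The 4 kinases thus held 1 member higher and 1 lower in UM-UC-3, and 1 lower in A-375. That was 50% called in UM-UC-3 and 25% in A-375, against 31.1% and 10.8% of all entries.

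EIF2B2 encodes the beta subunit of eIF2B, the factor that recharges eIF2 with GTP. It fell in both total knockouts, with a log2 fold change of -0.56 ± 0.12 in UM-UC-3 (SE; adjusted p = 8.53e-05) and -0.75 ± 0.19 in A-375 (SE; adjusted p = 0.00263), as the authors' deposited tables gave. With parental controls alone, the implied level was 1338 normalized counts in UM-UC-3 knockout cells against 1973 in UM-UC-3 controls. In A-375 it was 639.9 in knockout cells against 1077 in controls. In the A-375 long-form knockout EIF2B2 was at 0.03 ± 0.12 (SE; adjusted p = 0.943). The remaining subunit genes of eIF2B were called in no table. EIF2B1, for the alpha subunit, was at -0.22 ± 0.12 in UM-UC-3 and -0.03 ± 0.12 in A-375, and EIF2B3, for gamma, was at -0.02 ± 0.12 and 0.09 ± 0.23 in the same order. EIF2B4, for delta, was at -0.05 ± 0.09 and 0.16 ± 0.09. EIF2B5, for the catalytic epsilon subunit, was at -0.12 ± 0.10 and -0.39 ± 0.24.

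EIF2B2 lies on the plus strand of chromosome 14 (hg38, chr14:75002911-75012366), with no other entry of the tables overlapping it. Its promoter is shown because it was lower in both lines and holds a site of the kind GABP binds. EIF2AK1, also lower in both lines, had no promoter window to search, so whether it holds such a site is not known here. Promoter windows of 300 bases, from 250 before to 50 after each RefSeq start (GRCh38.p14), were searched for the 7 letters CCGGAAG on both strands. The letters written as CTTCCGG are the same site read from the other strand. The stretch below runs 5′ to 3′ on the plus strand from 250 before to 20 after the start (chr14:75002671-75002940), with the site in capitals.
EIF2B2 promoter: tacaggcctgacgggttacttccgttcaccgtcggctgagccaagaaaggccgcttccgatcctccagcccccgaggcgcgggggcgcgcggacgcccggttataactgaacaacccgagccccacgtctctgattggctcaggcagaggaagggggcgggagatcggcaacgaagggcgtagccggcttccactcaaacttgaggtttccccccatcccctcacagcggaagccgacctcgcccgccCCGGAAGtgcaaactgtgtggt

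The site in EIF2B2 begins 2 bases before the RefSeq start. A promoter window was matched for 43 of the 53 members, and 12 of these (27.9%) held the motif. Across the genome 10.3% of 35116 windows held it. By gene, counted as for the members where any window held it, the share was 12.2% of 27305 genes. Among genes tested in UM-UC-3 with a window the share was 22.3%. It was 36% among genes lower in UM-UC-3, 15.9% among genes higher and 21% among genes not called. In A-375 the shares were 36.5% among genes lower, 13.5% among genes higher and 21% among genes not called. The motif was in 6 of the 12 members lower in UM-UC-3 that had a window, in 3 of the 6 higher and in 3 of the 25 not called. A match describes these letters only and is not evidence of binding. The stretches of 30 bases around the match are given for the members called in UM-UC-3, each read on the strand of its gene, with the nearest match where a window held several.
EIF3I, lower, chr1:32222364-32222393, plus strand: agacccataatCCGGAAGtgacctcgaaac
EIF4E2, lower, chr2:232550630-232550659, plus strand: cccgcgcaaaaCCGGAAGtacccgggccca
EIF4EBP2, lower, chr10:70404135-70404164, plus strand: gccttcgcccgCTTCCGGtcgtcgtcgtcg
EIF5A, lower, chr17:7308332-7308361, plus strand: ggtcccggccaCCGGAAGcccggaacggcc
EIF6, lower, chr20:35284800-35284829, minus strand: gccgggctctcCCGGAAGtctccctggacg
EIF2A, higher, chr3:150546658-150546687, plus strand: tcactccgtaaCCGGAAGtgaattggcccc
EIF2AK3, higher, chr2:88627626-88627655, minus strand: ggtaattgcgtCCGGAAGagggacgggcct
EIF5A2, higher, chr3:170908828-170908857, minus strand: tgcgctccacgCCGGAAGtgcactaatccg

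Among members lower in UM-UC-3, sites began 32 and 64 bases before the start in EIF3I, 48 before in EIF4E2 and 30 before at 1 of the starts of EIF5A, which had a further match 139 bases before. The site began 1 base past the start base in EIF4EBP2. In EIF6 it began 46 bases before the nearer of its annotated starts and 101 before the other. In members higher in UM-UC-3 it began 118 bases before the start in EIF2A, 180 in EIF2AK3 and 209 in EIF5A2. The windows of EIF4E3, higher in both lines, did not hold these letters.

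Of the 3 subunit genes of eIF2 itself, 1 was lower in UM-UC-3 (33.3%, against 14.2% of all entries) and none was called in A-375. EIF2S2, which encodes the beta subunit, fell by 0.41 on the log2 scale in the UM-UC-3 total knockout in the authors' deposited table (SE 0.16; adjusted p = 0.0376) and was at -0.07 ± 0.15 in A-375. EIF2S1, for the alpha subunit that the kinases phosphorylate, was at -0.01 ± 0.09 in UM-UC-3 and -0.13 ± 0.20 in A-375. EIF2S3, for the gamma subunit that binds GTP, was at -0.09 ± 0.07 and -0.07 ± 0.14. EIF2A and EIF2D encode separate factors that can deliver tRNA to the ribosome. EIF2A rose in UM-UC-3, by 0.62 ± 0.16 (SE; adjusted p = 0.00137), and was at 0.24 ± 0.20 in A-375, while EIF2D was not called, at 0.27 ± 0.12 and 0.01 ± 0.17.

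Genes that act on eIF2 and its kinases were followed in a list of 18 names, of which 16 had entries. In UM-UC-3 4 were higher and 5 lower, in the A-375 total knockout 1 was higher and 2 lower, and in the long-form knockout 1 was higher. Over all entries, 31.1% were called in UM-UC-3, 10.8% in the A-375 total knockout and 0.904% in the long-form knockout. KIAA0141, the older name of DELE1, encodes the protein that carries mitochondrial stress to HRI. It fell in both total knockouts, with -1.06 ± 0.13 in UM-UC-3 (SE; adjusted p = 3.45e-13) and -0.98 ± 0.28 in A-375 (SE; adjusted p = 0.0112), as the authors' deposited tables gave, and was at -0.25 ± 0.11 in the long-form knockout (adjusted p = 0.329). OMA1, the mitochondrial protease that cleaves DELE1, was at -0.25 ± 0.15 in UM-UC-3 and -0.77 ± 0.45 in A-375, neither called. It was higher in the long-form knockout, at 0.53 ± 0.15 (SE; adjusted p = 0.0429), but with that table's median set to 0 the call was lost (adjusted p = 0.0573).

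PPP1R15A, or GADD34, encodes the stress-induced subunit that directs a phosphatase to eIF2. It rose in both total knockouts, by 0.78 ± 0.21 in UM-UC-3 (SE; adjusted p = 0.00134) and 0.93 ± 0.32 in A-375 (SE; adjusted p = 0.0354) on the log2 scale in the authors' deposited tables. PPP1CA, a catalytic subunit of that phosphatase, fell in UM-UC-3 by 0.62 (SE 0.10; adjusted p = 2.5e-08) and was at -0.04 ± 0.20 in A-375. PRKRA, or PACT, an activator of PKR, rose in UM-UC-3, by 0.78 ± 0.13 (SE; adjusted p = 6.43e-08), and was at -0.20 ± 0.19 in A-375, a UM-UC-3 minus A-375 difference of 0.98 (adjusted p = 0.00161). GCN1, which GCN2 needs to sense uncharged tRNA, fell in UM-UC-3 by 0.79 (SE 0.15; adjusted p = 1.71e-06) and was at -0.32 ± 0.22 in A-375. IMPACT, an inhibitor of GCN2, fell in A-375 by 0.79 (SE 0.25; adjusted p = 0.0191) and was at -0.02 ± 0.26 in UM-UC-3. These values are of messenger RNA, and phosphorylation of eIF2 was not measured.

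**Figure D3:**
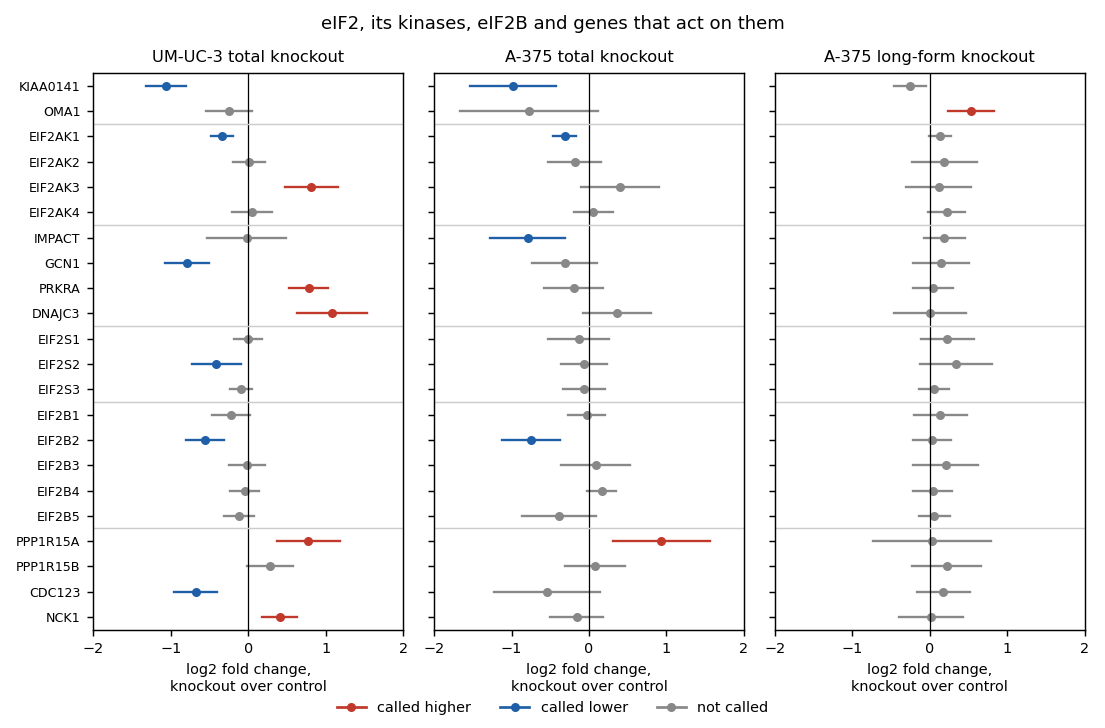
Log2 fold change of knockout over control for eIF2, its kinases, eIF2B and listed genes that act on them, in the UM-UC-3 total, A-375 total and A-375 long-form knockouts. Points are the authors' deposited values, bars are 95% intervals, and red and blue mark entries called higher and lower. KIAA0141, EIF2AK1 and EIF2B2 are blue and PPP1R15A is red in both total knockouts, and OMA1 is the coloured point in the long-form knockout.

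Of the 5 genes for start site selection and subunit joining, 1 was higher in each total knockout and none was lower. That was 20% in each, against 17% of all entries higher in UM-UC-3 and 5.07% in A-375. EIF1 encodes the factor that keeps the scanning ribosome from settling on poor start codons, and EIF1B is a close paralog. EIF1B rose in UM-UC-3, by 0.71 ± 0.14 (SE; adjusted p = 1.21e-05), as the authors' deposited table gave, and was at 0.32 ± 0.17 in A-375 (adjusted p = 0.208). EIF1 rose in A-375, by 0.38 ± 0.13 (SE; adjusted p = 0.0354), and was at 0.42 ± 0.18 in UM-UC-3 (adjusted p = 0.0626). The sizes for EIF1 were thus similar, and its call in one line alone does not show a difference between them. EIF5, which prompts eIF2 to hydrolyse its GTP, was at 0.06 ± 0.14 in UM-UC-3 and 0.39 ± 0.14 in A-375 (adjusted p = 0.0539). EIF1AX and EIF5B lay between -0.17 and 0.04 in both total knockouts.

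Of the 14 eIF3 entries, 2 were higher and 2 lower in UM-UC-3, and none was called in either A-375 comparison. In UM-UC-3 that was 14.3% in each direction, near the 17% of all entries higher and 14.2% lower. EIF3D, whose product can itself bind the cap of some messengers, rose by 0.39 ± 0.10 (SE; adjusted p = 0.00143), and EIF3H rose by 0.36 ± 0.13 (SE; adjusted p = 0.0255), as the authors' deposited table gave for UM-UC-3. In A-375 EIF3D was at 0.04 ± 0.12 and EIF3H at 0.09 ± 0.20. EIF3K, a peripheral subunit, fell in UM-UC-3 by 0.71 (SE 0.12; adjusted p = 1.79e-07). Its A-375 value was nearly as large, -0.69, but had an SE of 0.29 and was not called (adjusted p = 0.101). EIF3I fell in UM-UC-3 by 0.39 (SE 0.12; adjusted p = 0.00491) and was at -0.18 ± 0.14 in A-375. EIF3C and EIF3CL are near-identical copies whose reads cannot be divided with certainty, and EIF3CL had an SE of 2.05 in UM-UC-3 and 1.57 in A-375. The remaining 8 eIF3 entries lay between -0.13 and 0.23 in UM-UC-3 and between -0.09 and 0.17 in A-375.

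Of the 10 entries for eIF4F and its helpers, 1 was higher and 4 were lower in UM-UC-3, and 1 was higher in A-375. In UM-UC-3 that was 10% higher and 40% lower, against 17% and 14.2% of all entries. In A-375 it was 10% higher, against 5.07% of all entries. EIF4E itself, the cap-binding subunit, was not called, at -0.15 ± 0.14 in UM-UC-3 and -0.09 ± 0.16 in A-375. EIF4E2, or 4EHP, encodes a cap-binding protein that does not bind eIF4G and acts mostly as a repressor of translation. It fell in UM-UC-3 by 0.64 (SE 0.11; adjusted p = 3.95e-07), as the authors' deposited table gave, and was at -0.28 ± 0.12 in A-375 (adjusted p = 0.119). EIF4E3, the third member of that family, had the largest log2 fold change among the called members in both lines. It rose by 1.70 ± 0.44 in UM-UC-3 (SE; adjusted p = 0.00104) and by 2.81 ± 0.85 in A-375 (SE; adjusted p = 0.0148). Its counts were low: with parental controls alone, the implied level was 366.6 normalized counts in UM-UC-3 knockout cells against 112.5 in controls, and 103.1 in A-375 knockout cells against 14.7 in controls. The 95% interval of the fold in A-375 ran from 2.23 to 22.2, and the call was lost when entries under a mean of 100 were left out, since EIF4E3 had a mean of 90.5 there.

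Of the genes for eIF4G and eIF4A, 3 fell in UM-UC-3. EIF4G1, the main scaffold, fell by 0.34 (SE 0.08; adjusted p = 0.000349) and EIF4G2, or DAP5, which lacks the eIF4E site, fell by 0.36 (SE 0.13; adjusted p = 0.0268), as the authors' deposited table gave. EIF4A1, the main helicase, fell by 0.43 (SE 0.17; adjusted p = 0.044). Its locus overlaps small nucleolar RNAs and SENP3-EIF4A1, a joined entry that was at 0.15 ± 0.40 in UM-UC-3. In A-375 these were at -0.04 ± 0.19 for EIF4G1, 0.13 ± 0.18 for EIF4G2 and 0.08 ± 0.17 for EIF4A1. EIF4G3 was at -0.07 ± 0.10 in UM-UC-3 and -0.12 ± 0.16 in A-375, and EIF4A2 at 0.28 ± 0.15 and -0.05 ± 0.25. The helicase helpers EIF4B and EIF4H were at -0.04 ± 0.11 and -0.22 ± 0.10 in UM-UC-3. In A-375 they were at -0.17 ± 0.20 and -0.08 ± 0.14.

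Of the 3 measured genes for eIF4E binding proteins, 2 were lower in UM-UC-3 (66.7%, against 14.2% of all entries). None was called in either A-375 comparison. The 2 were the measured genes for the binding proteins that mTORC1 controls. EIF4EBP1 fell by 0.61 (SE 0.11; adjusted p = 9.72e-07) and EIF4EBP2 by 0.87 (SE 0.24; adjusted p = 0.00226) on the log2 scale in the authors' deposited table. For EIF4EBP2 this implied 5696 normalized counts in UM-UC-3 knockout cells against 10441 in controls, with parental controls alone. In the A-375 total knockout EIF4EBP1 was at -0.11 ± 0.19 and EIF4EBP2 at 0.01 ± 0.16, where the implied EIF4EBP2 level was 2375 in knockout cells and 2361 in controls. EIF4ENIF1, or 4E-T, which carries eIF4E into the nucleus and to silenced messengers, was at 0.04 ± 0.09 in UM-UC-3 and 0.05 ± 0.13 in A-375.

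Partners of this branch were followed in lists. Of 12 genes of mTORC1 and S6 kinase, 3 were higher and 2 lower in UM-UC-3, and 1 was higher in A-375. Over all entries, 17% were higher and 14.2% lower in UM-UC-3, and 5.07% were higher in A-375. MTOR, the kinase, fell in UM-UC-3 by 0.44 (SE 0.12; adjusted p = 0.00157) and TBC1D7, a part of the inhibiting TSC complex, by 0.77 (SE 0.17; adjusted p = 0.000136). DEPTOR, an inhibitor of mTOR, rose in UM-UC-3, by 1.23 ± 0.35 (SE; adjusted p = 0.00329), and was at -0.83 ± 0.58 in A-375. The UM-UC-3 minus A-375 difference for DEPTOR was 2.05 (adjusted p = 0.0316). RPS6, the ribosomal protein that S6 kinase phosphorylates, was at -0.28 ± 0.21 in UM-UC-3 and rose in A-375, by 0.56 ± 0.20 (SE; adjusted p = 0.0446), a difference of -0.84 (adjusted p = 0.0364). Of 17 genes for poly(A) binding and eIF4G partners, 3 were higher in UM-UC-3 and 1 was lower in A-375. Over all entries, 17% were higher in UM-UC-3 and 5.74% lower in A-375. PAIP2B, an inhibitor of the poly(A) binding protein, rose in UM-UC-3 by 1.38 ± 0.25 (SE; adjusted p = 7.49e-07) and was at 0.69 ± 0.40 in A-375. CYFIP1, which binds eIF4E within the FMRP repressor complex, fell in A-375 by 1.19 (SE 0.26; adjusted p = 0.00036) and was at -0.58 ± 0.36 in UM-UC-3.

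**Figure D4:**
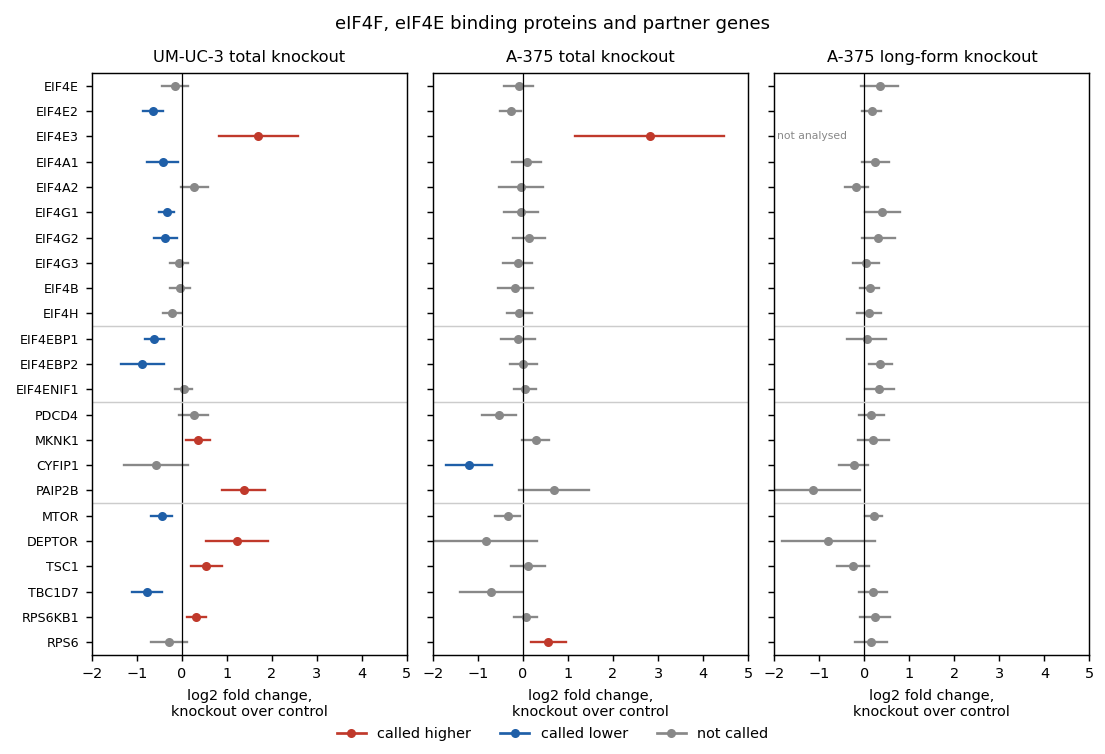
Log2 fold change of knockout over control for eIF4F, its helpers, the eIF4E binding proteins and listed partners, in the UM-UC-3 total, A-375 total and A-375 long-form knockouts, with 95% intervals. Points are the authors' deposited values, red and blue mark entries called higher and lower. EIF4E3 is red in both total knockouts, while EIF4EBP1 and EIF4EBP2 are blue in UM-UC-3 and lie near 0 in A-375.

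Among the 6 factors whose main roles lie elsewhere, 1 was higher and 4 lower in UM-UC-3, and none was called in A-375. In UM-UC-3 that was 16.7% higher and 66.7% lower, against 17% and 14.2% of all entries. EIF5A carries the modified residue hypusine and helps ribosomes past difficult peptide bonds. It fell in UM-UC-3 by 0.63 (SE 0.14; adjusted p = 5.57e-05), as the authors' deposited table gave, and was at 0.06 ± 0.24 in A-375. EIF5AL1, a near-identical copy of EIF5A, had -0.67 ± 0.19 in UM-UC-3 (SE; adjusted p = 0.00331) and 0.74 ± 0.47 in A-375, and the counting could have divided reads between the copies. The paralog EIF5A2 rose in UM-UC-3, by 0.90 ± 0.24 (SE; adjusted p = 0.00129), with a mean of 349.3 normalized counts. EIF6, which keeps the large ribosomal subunit from joining too early, fell in UM-UC-3 by 0.60 (SE 0.16; adjusted p = 0.00117). EIF4A3, a core protein of the exon junction complex, fell by 0.28 (SE 0.11; adjusted p = 0.039). EIF1AD was not called, at -0.17 ± 0.17 in UM-UC-3 and -0.09 ± 0.15 in A-375, nor was the antisense entry EIF3J-AS1, at 0.36 ± 0.22 and 0.28 ± 0.31. Of the 4 genes of hypusine synthesis, SRM, the spermidine synthase gene, was lower in UM-UC-3, at -0.38 ± 0.13 (SE; adjusted p = 0.0173).

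Later steps of translation were also listed. Of 13 genes listed under elongation, not all of them for elongation factors, 3 were lower in UM-UC-3 (against 14.2% of all entries). In A-375 2 were higher (against 5.07%). The UM-UC-3 genes were GFM2, at -0.51 ± 0.11 (SE; adjusted p = 0.000104), TSFM, at -0.54 ± 0.15 (SE; adjusted p = 0.0016), and EEF1E1. GFM2 and TSFM encode factors of the mitochondrial ribosome. In A-375 EEF1A2 rose by 2.05 ± 0.57 (SE; adjusted p = 0.00711) and EEF1B2 by 0.40 ± 0.14 (SE; adjusted p = 0.0345), as the authors' deposited table gave. In UM-UC-3 these were at -0.01 ± 0.20 and -0.28 ± 0.13, with UM-UC-3 minus A-375 differences of -2.06 for EEF1A2 (adjusted p = 0.013) and -0.68 for EEF1B2 (adjusted p = 0.00893). Of 8 genes of termination and recycling, 1 was higher in UM-UC-3, against 17% of all entries. It was PELO, a ribosome rescue factor, at 0.47 ± 0.12 (SE; adjusted p = 0.00115). Of 12 genes whose messengers carry a 5′ terminal oligopyrimidine tract, the mark of growth-controlled translation genes, 1 was higher in UM-UC-3 (EIF3H) and 1 in A-375 (EEF1B2). Over all entries, 17% were higher in UM-UC-3 and 5.07% in A-375.

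The difference between the cell lines was tested for each entry as the UM-UC-3 minus the A-375 log2 fold change, with normal p-values adjusted by the Benjamini-Hochberg method over 12640 entries. Of all entries 10.4% differed, 6.32% with the UM-UC-3 change higher and 4.12% with it lower. Of the 53 members 1 differed, EIF4EBP2, with a difference of -0.88 ± 0.29 (SE; adjusted p = 0.0289), and 8 members (15.1%) had an unadjusted p under 0.05, against 25.6% of all entries. EIF5AL1 followed, with a difference of -1.41 (adjusted p = 0.0535), then EIF5A with -0.69 (adjusted p = 0.0831) and EIF4EBP1 with -0.50 (adjusted p = 0.124). Apart from EIF4EBP2, this test did not show that the lines differ for any member called in UM-UC-3 and not in A-375. Members had the same sign in both lines in 36 of 53 cases (67.9%), against 56.6% of all entries. The Pearson correlation of the changes between the lines was 0.296 over members, with the imprecise EIF3CL included, and 0.335 over all entries. Cell line cannot be told apart from the sets of clones and controls that each line had.

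The long-form knockout was set beside the A-375 total knockout without a test, because the fits may share control libraries. Its changes were small and mostly upward: 47 of 52 members (90.4%) had a log2 fold change above 0, against 52.2% of all entries and 68% of entries between the members' quartiles of mean count. The median was 0.13 over the members and 0.09 over those entries. The members with an unadjusted p under 0.05 were EIF4EBP2 at 0.36 ± 0.13 (SE; adjusted p = 0.214), EIF5 at 0.36 ± 0.17, EIF4G1 at 0.40 ± 0.20 and EIF4ENIF1 at 0.33 ± 0.17 in the authors' deposited table. EIF2AK1 and EIF2B2, lower in the A-375 total knockout, were at 0.13 ± 0.07 and 0.03 ± 0.12 in the long-form knockout. The knockout side of this comparison had 2 clones, and the cause of the upward lean was not tested. In the joined entry SENP3-EIF4A1 the long-form knockout was lower, at -2.14 ± 0.43 (SE; adjusted p = 0.000602), whereas EIF4A1 itself was at 0.25 ± 0.15.

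Place in the genome limits some values. Of 52 members found in GENCODE release 29, 23 overlapped another entry of the tables, among them EIF2S2 with RALY, EIF3H with UTP23, EIF3I with TMEM234, EIF4E2 with TIGD1 and EIF5A with GPS2. Because libraries are normalized to each other, a change in total RNA per cell would not be seen, and a change in every cell and a change in a share of cells cannot be told apart.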

How the data were processed

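The 33 libraries of UM-UC-3 and A-375 cells were made with a stranded messenger RNA kit, per the labels' protocols. Per the submitters' processing notes, the authors' tools were HISAT2, SAMtools, StringTie and DESeq2, on hg38. Not given in the sources used here are versions, annotation, gene filter, design formula, control libraries and the strand setting of the counting. Only the authors' fitted DESeq2 results, in 3 deposited tables, were analysed, with no value of a single library, so depth per library is unknown and precision is given by the SE. Their signal column is the mean normalized count over the libraries of a fit, per the file headers. The authors' log2 columns give each entry's change, knockout over control, with the SE. The score column is the deposited Wald statistic. The p-value, Benjamini-Hochberg adjusted p and q-value columns are the authors', adjusted over the whole table.

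Entries were called at an adjusted p under 0.05. Differences between cell lines used entries whose mean reached 10 in UM-UC-3 and in A-375, with normal p-values adjusted by the Benjamini-Hochberg method (Python 3.11.15, pandas 2.3.3, NumPy 2.4.6, SciPy 1.17.1, Matplotlib 3.10.9), tested on simulated data. Implied levels follow from the mean, the fold change and the number of knockout and control libraries, with parental controls alone or all controls. P-values rest on the spread between libraries, some of which are cultures of 1 clone. Places are from GENCODE release 29 and promoters from RefSeq.

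Named genes were members called in any table, all members of the eIF2, eIF2B, kinase, eIF4F and binding protein lists, and for partner lists up to 4 called genes per table with the smallest adjusted p; not every gene the last clause gives is printed. Promoter stretches beyond EIF2B2 were chosen after the calls were seen. The members and lists were chosen with earlier results of these data known.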

Additional observations from a re-analysis of the deposited data

Results flagged for a closer look

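The change of EIF4EBP2 differed between the cell lines, with a UM-UC-3 minus A-375 difference of -0.88 on the log2 scale (SE 0.29; adjusted p = 0.0289 by the test of the difference itself). Its log2 fold change in the authors' deposited tables was -0.87 ± 0.24 in the UM-UC-3 total knockout and 0.01 ± 0.16 in the A-375 total knockout.

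Among listed partner genes called in a total knockout, the changes of 5 also differed between the lines by the same test. The UM-UC-3 minus A-375 difference was 0.98 for PRKRA (adjusted p = 0.00161), -0.68 for EEF1B2 (adjusted p = 0.00893) and -2.06 for EEF1A2 (adjusted p = 0.013). It was 2.05 for DEPTOR (adjusted p = 0.0316) and -0.84 for RPS6 (adjusted p = 0.0364). By that test PDCD4, at 0.80 (adjusted p = 0.0228), and EEF1D, at -1.83 (adjusted p = 0.0481), differed as well. Neither was called in a total knockout.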

How the results depend on the processing

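Alternatives were the authors' q-value, centring on the table median, a mean of at least 10 or 100, a threshold of 0.01, and members of the 9 role lists alone. No called value changed direction. Of 814 alternative values for members, 797 kept their side of the threshold, 8 fell below it and 9 passed it. A change of sign in an uncalled value, which can occur near 0 on centring, was not counted. The count of members higher in the A-375 total knockout, 2, became 1 with a mean of at least 100, which left out EIF4E3, and 0 at a threshold of 0.01. The count of members whose change was lower in UM-UC-3 than in A-375, 1, became 3 when both tables were centred (EIF5A, adjusted p = 0.0492, and EIF5AL1, adjusted p = 0.0391, joined EIF4EBP2), 2 where means reached 100 in both tables, and 0 at 0.01. In these the construction of the alternative changed which entries were tested or where the threshold or the zero lay. EIF5 was called higher in the A-375 total knockout on centring (adjusted p = 0.0245) and EIF4H lower in UM-UC-3 (adjusted p = 0.0388). Counts recomputed after the data were seen were these. The 4 members called in the A-375 total knockout became 2 at 0.01, without EIF1 and EIF4E3. The member higher in both lines, 1, became 2 by the q-value and 0 with a mean of at least 100 or at 0.01. Of 270 counts by role, 260 stayed within 1.5 times and 10 moved, among them the eIF4F genes lower in UM-UC-3, 4, which became 2 at 0.01 without EIF4A1 and EIF4G2. The UM-UC-3 counts of all members higher and lower stayed within 1.5 times under each alternative. No paired analysis was possible because the authors deposited fitted contrasts with no value for a single library, and for the same reason no library was left out. Low counts limit EIF4E3 and EIF3CL.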
